A study of Homo sapiens with 9 samples.

Results

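The genes of the cytosolic heat shock response were followed in BEAS-2B cells, an immortalized human bronchial epithelial line, after exposure to e-cigarette aerosol condensates. The 10 genes were chosen by name, as HSF1 and 9 chaperone or cochaperone genes of the cytosol, from the 63187 genes of the deposited table. All 10 were among the 16030 genes tested, each with at least 438 counts in every library. The design held 3 conditions with 3 libraries each, 9 in all, described by the study's methods as biological replicates. Control cells were untreated. PG/VG cells received the condensate of the carrier liquid alone, propylene glycol and vegetable glycerine. EC cells received the condensate of a Virginia tobacco flavored liquid with 18 mg/mL nicotine. Both condensates were used at a 2% (v/v) dilution for 24 h, so the EC condensate differs from the PG/VG condensate in nicotine and flavor together. All libraries come from a single cell line at a single time, and early responses that had ended by 24 h were not measured. The question was whether either condensate shifted the expression of these genes, and whether EC differed from PG/VG.

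Misfolded proteins in the cytosol draw HSP70 and HSP90 chaperones away from HSF1, the transcription factor they hold inactive. Freed HSF1 forms trimers and binds heat shock elements, which are inverted repeats of the short unit NGAAN in the promoters of chaperone genes. HSP70 proteins (HSPA1A, HSPA1B and HSPA8) bind exposed hydrophobic stretches in cycles of ATP hydrolysis that J-domain proteins such as DNAJB1 start and exchange factors such as HSPH1 and BAG3 end. HSP90 proteins (HSP90AA1 and HSP90AB1) finish the folding of kinases and receptors, and the small heat shock protein HSPB1 holds unfolded clients without ATP. In airway epithelium this system is known as a first response to heat, oxidants and reactive aldehydes. HSPA1A, HSPA1B, DNAJB1, HSPH1 and BAG3 are known as strongly inducible, HSPA8 and HSP90AB1 as largely constitutive.

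The promoters of these genes were searched for heat shock elements, and the matches are shown to compare the genes in sequence. RefSeq promoter windows (GRCh38.p14, 250 bases before to 50 bases after each annotated start) were found for 9 of the 10 genes, in 14 windows, and both strands were searched. A 2-unit element was written as GAANNTTC or TTCNNGAA, and a 3-unit element as GAANNTTCNNGAA or TTCNNGAANNTTC, so every 3-unit match also holds 2-unit matches. A 2-unit element was found in 7 of the 9 genes, against 16.2% of the 27305 symbols with a window. A 3-unit element was found in 3 genes (HSPA8, HSP90AA1 and HSP90AB1), against 0.608% of symbols. The windows of HSPH1 and BAG3 held neither. The nearest match upstream of a start in each gene is given here 5′ to 3′ on the strand of the gene, with the matched letters in capitals. For HSP90AA1 a 3-unit and a neighbouring 2-unit match are shown together. The stretches lie at chr6:31815423-31815458 for HSPA1A, chr6:31827619-31827654 for HSPA1B, chr6:44247817-44247857 for HSP90AB1 and chr7:76302477-76302512 for HSPB1, all on the plus strand. On the minus strand they lie at chr11:123062171-123062199 for HSPA8, chr14:102087091-102087146 for HSP90AA1 and chr19:14518423-14518458 for DNAJB1. Unlike the others, the HSPA8 stretch lies wholly on annotated exon sequence (29 of its 29 bases) and is shown with shorter flanks.
HSPA1A: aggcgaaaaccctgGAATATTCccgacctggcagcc
HSPA1B: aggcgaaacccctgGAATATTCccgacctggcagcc
HSP90AB1: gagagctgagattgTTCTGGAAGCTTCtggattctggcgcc
HSPB1: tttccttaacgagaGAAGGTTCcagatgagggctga
HSPA8: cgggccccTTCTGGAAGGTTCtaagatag
HSP90AA1: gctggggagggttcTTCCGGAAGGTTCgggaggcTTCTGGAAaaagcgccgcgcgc
DNAJB1: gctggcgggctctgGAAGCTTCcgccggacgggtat

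These matches are descriptions of letters, and no binding was measured. In the GENCODE annotation of GRCh38, HSPA1A (chr6:31815543-31817946) and HSPA1B (chr6:31827738-31830254) are neighbours on the plus strand, and HSP90AB1 (chr6:44246166-44253888) lies on the same chromosome. The other genes lie at chr11:123057489-123063230 (HSPA8), chr14:102080742-102139699 (HSP90AA1), chr7:76302673-76304295 (HSPB1), chr13:31134973-31162388 (HSPH1), chr19:14514769-14560391 (DNAJB1), chr10:119651380-119677819 (BAG3) and chr8:144291591-144314720 (HSF1). The HSPA1A and HSPA1B windows were equal at 277 of 299 aligned bases (92.6%), and the transcripts are also near-copies. Of all 150-base windows of the canonical transcript, 69.6% for HSPA1A and 70.1% for HSPA1B recur in another annotated transcript, and 0 do for each of the other 8 genes. Those transcripts belong to the other gene of the pair or to the readthrough gene named below. A read within a window that the pair shares matches both genes on its own. Sequencing was paired, so a read whose mate reached differing sequence may still have been counted. Multi-mapping reads were ignored in the counting, which can understate the levels of this pair by a share that was not measured. Exons of an annotated readthrough gene (ENSG00000285565) cover 36.6% of HSPA1B exon length. Reads that overlap both genes were ignored too, which can lower the HSPA1B count further, and the 0 counts of the readthrough gene in every library do not show how many were lost. Other annotated genes overlap 15.1% of HSPA8 exon length and under 7% in each of the remaining 8 genes, with the strand setting of the counting not given in the sources used here.

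Total counts ranged from 16168260 to 24917838 per library, and the 10 genes took 0.602% to 0.730% of them. Of the 8 epithelial markers, KRT8, KRT18 and KRT7 carried most of a summed level of 1460 to 2844 CPM (counts scaled by the library total), while EPCAM and CDH1 stayed at or below means of 1.76 CPM and KRT5 and TP63 near 0. KRT8, KRT18 and KRT7 were lower in EC than in control (log2 fold changes −0.25, −0.46 and −0.45, adjusted p 0.0177, 0.000125 and 0.000202 by edgeR's quasi-likelihood test). Summed leukocyte markers lay at 4.00 to 5.78 CPM in control, 6.43 to 7.91 in PG/VG and 5.01 to 9.41 in EC, of which CD14 gave most, with PTPRC near 0 and CD3E at 0. Summed endothelial markers lay between 4.24 and 7.77 CPM, and fibroblast markers between 149 and 214 CPM in COL1A1 and THY1, with COL1A2, DCN and LUM near 0. THY1 was called lower in EC (−0.22, adjusted p = 0.0328) and PG/VG (−0.26, adjusted p = 0.0315) than in control, COL1A1 higher in PG/VG (0.26, adjusted p = 0.0394), and KRT7 lower in EC than in PG/VG (−0.32, adjusted p = 0.0320). Their part in the results was not tested. The replicate number 2, 3 or 4 of each library is also its batch in the sample labels. Libraries of batch 4 stood apart. The chi-square per gene between replicates was 35.0 to 52.8 in pairs with batch 4 and 3.66 to 12.2 in pairs without it. The comparisons are therefore made within batches, and the log2 fold changes of the 10 genes in EC vs. control are also given without batch 4.

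In control cells HSP90AB1, HSP90AA1 and HSPA8 were the most abundant of the 10 genes. Per kilobase of exon, the mean level was 580 ± 16.1 CPM/kb (SD, n = 3) for HSP90AB1, 458 ± 28.4 for HSP90AA1, 350 ± 52.4 for HSPA8 and 128 ± 25.3 for HSPB1, and the 3 values of each of these genes lay entirely above those of the next. BAG3 (39.8 ± 4.00), HSF1 (37.4 ± 3.09) and HSPH1 (34.8 ± 7.86) followed, with overlapping values between neighbours. DNAJB1 (20.4 ± 1.64) and HSPA1A (19.0 ± 1.78) overlapped as well, and HSPA1B was lowest at 12.4 ± 2.38 CPM/kb. On this scale the 10 genes stood above 75.7% to 99.8% of the tested genes with a known length. The order depends on the length used. With the canonical transcript in place of all exons, HSPA8 (750 CPM/kb), HSP90AA1 (724) and HSP90AB1 (677) came first, with overlap between HSPA8 and HSP90AA1 and between HSP90AA1 and HSP90AB1, and DNAJB1 (74.5) passed HSPH1 (55.6) and BAG3 (42.6). HSPA1A and HSPA1B were last under both lengths, and the ignored multi-mapping reads can make their levels too low.

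**Figure D1:**
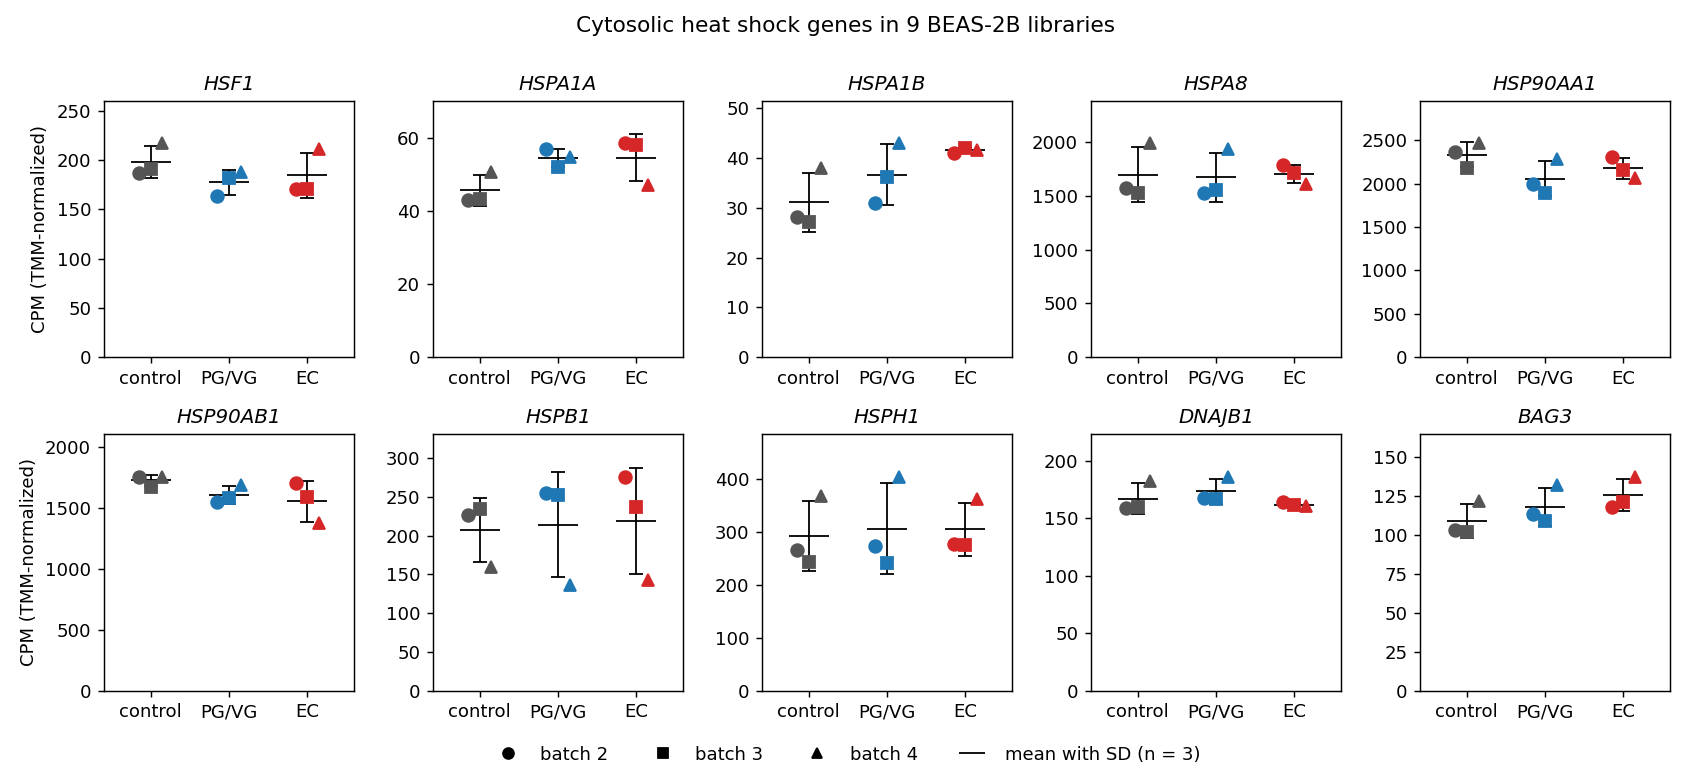
Levels of the 10 heat shock genes in CPM, 1 panel per gene with its own axis, for control, PG/VG and EC libraries, with 1 marker per library by batch and lines for the mean with the SD (n = 3). HSPA1B in EC lies between 41.1 and 42.0 CPM, above all control values, while most other panels overlap between conditions and HSPB1 and HSPH1 split by batch 4.

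After EC exposure 2 of the 10 genes were called, HSPA1B and BAG3, both higher than in control and by under 1.5-fold. HSPA1B, a stress-inducible HSP70, was 1.35-fold higher than in control (95% interval 1.18 to 1.55), and BAG3, an exchange factor that couples HSP70 to selective autophagy, was 1.15-fold higher (1.05 to 1.27). The other 8 genes did not pass the threshold (adjusted p under 0.05 by edgeR, adjusted over all 16030 genes by Benjamini-Hochberg). Of all genes tested, 13.5% were called in EC vs. control, 8.07% as higher, so 2 of 10 is close to what the whole table gave. At an unadjusted p under 0.05, 3 of the 10 genes passed, against 27.4% of all genes. The fitted log2 fold change was above 0 for 6 genes and below 0 for 4 (51.5% of all genes were above 0), with DNAJB1 turning above 0 when library size was the only scaling. The median was 0.033, against 0.0078 over all genes tested. RNA was measured in bulk, so more RNA per cell and more cells carrying the transcript cannot be told apart.

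**Figure D2:**
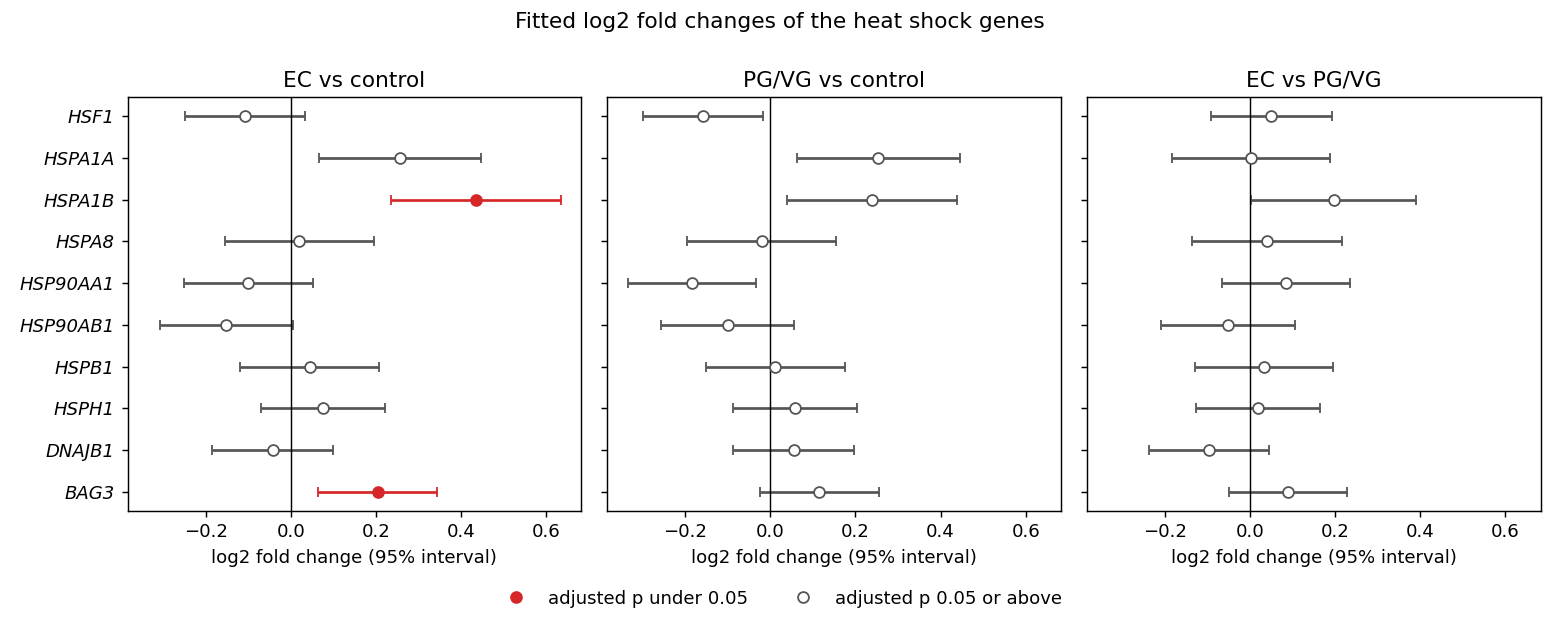
Fitted log2 fold changes (x axis) of the 10 genes (y axis) with 95% intervals in the 3 comparisons, filled red where the adjusted p was under 0.05. HSPA1B (0.44) and BAG3 (0.20) are filled in EC vs. control, and no gene is filled in PG/VG vs. control or EC vs. PG/VG.

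HSPA1B measured 28.1, 27.1 and 38.0 CPM in control replicates 2, 3 and 4, and 30.9, 36.2 and 43.0 CPM in the PG/VG replicates. In the EC replicates it measured 41.1, 42.0 and 41.6 CPM. All EC values lay above all control values, a separation in that direction found in 9.83% of all genes, while the PG/VG values overlapped both other groups. The log2 fold change of EC vs. control was 0.44 (SE 0.0959, adjusted p = 0.00411, edgeR), with 0.55, 0.63 and 0.13 within batches 2, 3 and 4. Without batch 4 it was 0.57 (adjusted p = 0.00421). The call was lost only without control replicate 3 among the 9 fits that left out a library (0.33, adjusted p = 0.0660), and without the batch term (0.42, adjusted p = 0.335).

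HSPA1A, whose protein is nearly identical to that of its neighbour HSPA1B, measured 43.0, 43.3 and 50.5 CPM in the control replicates. It measured 56.9, 51.9 and 54.6 CPM in the PG/VG replicates and 58.5, 58.1 and 47.1 CPM in the EC replicates. EC replicate 4 fell within the control range, and the EC replicates of batches 2 and 3 lay above it. The log2 fold change of EC vs. control was 0.26 (SE 0.0920, adjusted p = 0.0679), with 0.44, 0.42 and −0.10 within batches 2, 3 and 4. Whether it was called depended on the libraries and on the processing. With all 9 libraries it passed with library size as the only scaling (0.32, adjusted p = 0.0193), without the filter on low counts (0.27, adjusted p = 0.0341) and by ComBat-Seq followed by DESeq2 (0.25, adjusted p = 0.0349). It also passed without EC replicate 4 (0.38, adjusted p = 0.0153), without control replicate 4 (0.38, adjusted p = 0.00997) and without the whole batch (0.42, adjusted p = 0.0106). Because the counting can split this pair unevenly, the counts of both genes were also summed. The sum measured 71.2, 70.4 and 88.5 CPM in control, 87.8, 88.1 and 97.6 in PG/VG and 99.6, 100.1 and 88.7 in EC. It was higher in EC than in control by 0.33 on the log2 scale (SE 0.0852, adjusted p = 0.0115). The share of the sum assigned to HSPA1B ran from 35.2% to 46.9% over the 9 libraries and was highest in EC replicate 4.

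BAG3 measured 103.3, 102.1 and 121.6 CPM in the control replicates and 113.6, 108.6 and 131.8 CPM in the PG/VG replicates. In the EC replicates it measured 117.9, 121.1 and 137.3 CPM. The groups overlap as pooled values, since control replicate 4 lies above 2 EC values, but EC was the highest of the 3 conditions in every batch. The log2 fold change of EC vs. control was 0.20 (SE 0.0673, adjusted p = 0.0464), with 0.19, 0.25 and 0.17 within batches 2, 3 and 4. The call sat just inside the threshold and was lost in each of the 9 fits without 1 library (adjusted p 0.0510 to 0.257), although the log2 fold change in those fits stayed between 0.18 and 0.21. It was also lost without batch 4 (0.20, adjusted p = 0.124), with RLE normalization (0.19, adjusted p = 0.0606) and with DESeq2 (0.19, adjusted p = 0.0578). The same held without the filter on low counts (0.21, adjusted p = 0.0799), with EC and control fitted alone (0.21, adjusted p = 0.0531) and without the batch term (0.20, adjusted p = 0.524). It was kept with library size as the only scaling (0.26, adjusted p = 0.00938) and with at least 10 counts in every library (0.21, adjusted p = 0.0396). ComBat-Seq followed by DESeq2, the route of the study's methods, kept it too (0.19, adjusted p = 0.00352).

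The abundant folding machinery did not pass the test in EC. HSPA8, the constitutive HSP70, measured 1572, 1532 and 1991 CPM in control, 1527, 1555 and 1939 in PG/VG and 1787, 1716 and 1614 in EC. The order of the batches was turned in EC, where batch 4 was lowest, and the log2 fold change of 0.021 (SE 0.0844, adjusted p = 0.909) averages 0.18, 0.16 and −0.30 within batches 2, 3 and 4. HSP90AA1, the inducible cytosolic HSP90, measured 2362, 2180 and 2466 CPM in control, 1998, 1894 and 2281 in PG/VG and 2308, 2154 and 2067 in EC. Its log2 fold change in EC was −0.099 (SE 0.0728, adjusted p = 0.411), below 0 in all 3 batches. HSP90AB1, the constitutive partner, measured 1759, 1674 and 1753 CPM in control, 1553, 1588 and 1695 in PG/VG and 1706, 1593 and 1377 in EC. Its log2 fold change was −0.15 (SE 0.0756, adjusted p = 0.199), also below 0 in all 3 batches, and the lowest value again belonged to EC replicate 4. It passed only in the fit without EC replicate 2 among those that left out a library (−0.24, adjusted p = 0.0422). Without batch 4 the log2 fold changes in EC were 0.16 for HSPA8, −0.040 for HSP90AA1 and −0.072 for HSP90AB1, and none was called. Reads on annotated pseudogenes of these genes were few, at most 0.217% of the counts of a gene and its pseudogenes together for HSPA8, HSP90AA1 and HSP90AB1.

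HSPH1, DNAJB1 and HSPB1 did not pass the test in EC. HSPH1, an HSP110 exchange factor for HSP70, measured 265.8, 242.5 and 366.5 CPM in control, 273.7, 240.2 and 403.8 in PG/VG and 277.2, 274.9 and 362.4 in EC. Its values split by batch, with batch 4 highest in every condition, and its log2 fold change in EC was 0.077 (SE 0.0704, adjusted p = 0.527). DNAJB1, the J-domain partner of HSPA1A and a feedback repressor of HSF1, measured 158.9, 159.8 and 182.6 CPM in control, 167.5, 167.0 and 186.1 in PG/VG and 163.8, 161.2 and 160.8 in EC. The EC values lay within the control range, and its log2 fold change was −0.042 (SE 0.0685, adjusted p = 0.749). HSPB1, the small heat shock protein that also protects actin filaments, measured 227.0, 234.4 and 159.8 CPM in control, 254.3, 251.7 and 136.5 in PG/VG and 275.8, 236.3 and 143.3 in EC. Batch 4 was lowest in every condition, opposite to HSPH1, and the log2 fold change was 0.045 (SE 0.0788, adjusted p = 0.768). Without batch 4 the log2 fold changes in EC were 0.11 for HSPH1, 0.014 for DNAJB1 and 0.13 for HSPB1, and none was called.

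HSF1, the transcription factor itself, is controlled mainly as a protein, so its RNA does not report its activity. It measured 187.0, 190.7 and 217.1 CPM in control, 163.2, 181.8 and 187.8 in PG/VG and 171.1, 171.1 and 211.3 in EC. Both exposed groups were lower than control in each batch and overlapped with control as pooled values. The log2 fold change was −0.11 in EC (SE 0.0683, adjusted p = 0.335) and −0.16 in PG/VG (SE 0.0684, adjusted p = 0.195). Without batch 4 the EC value was −0.16 and was not called.

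PG/VG exposure moved no heat shock gene past the threshold. The count was 0 of 10 by edgeR and 0 by DESeq2 with the batch in the model, against 4.54% of all genes by edgeR. By ComBat-Seq followed by DESeq2, the route of the study's methods, it was 2 (HSP90AA1 and HSF1, both lower). That route called 1735 of 16100 genes. At an unadjusted p under 0.05, 4 of the 10 genes passed, HSPA1A and HSPA1B above control and HSF1 and HSP90AA1 below it, against 20.1% of all genes. HSPA1A in PG/VG lay above control without overlap, as did 7.79% of all genes, with a log2 fold change of 0.25 (SE 0.0920, adjusted p = 0.118), and it was called without control replicate 4 (adjusted p = 0.0247). HSPA1B gave 0.24 (SE 0.0966, adjusted p = 0.162) and the sum of both 0.25 (SE 0.0853, adjusted p = 0.0952). HSP90AA1 gave −0.18 (SE 0.0728, adjusted p = 0.153), and the other 7 genes lay between −0.16 and 0.11. The same direction in all 3 batches was seen in 7 of 10 genes, 4 higher (HSPA1A, HSPA1B, DNAJB1 and BAG3) and 3 lower (HSF1, HSP90AA1 and HSP90AB1), against 43.5% of all genes. In EC vs. control it was 5 of 10, against 46.1%. These comparisons use the same control libraries.

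EC and PG/VG were not told apart at any of the 10 genes. The count was 0 of 10 by edgeR, by DESeq2 with the batch and by ComBat-Seq followed by DESeq2, with 0.855% of all genes called by edgeR. At an unadjusted p under 0.05, 1 gene passed, HSPA1B, against 12.9% of all genes. Its log2 fold change of EC vs. PG/VG was 0.20 (95% interval 0.0036 to 0.39, adjusted p = 0.380), made of 0.41, 0.22 and −0.046 within batches 2, 3 and 4. DNAJB1 in EC lay below all PG/VG values, as did 3.37% of all genes, with a log2 fold change of −0.097 (95% interval −0.24 to 0.044, adjusted p = 0.599). The log2 fold changes of the other 8 genes lay between −0.052 (HSP90AB1) and 0.089 (BAG3). The 95% intervals of the 10 genes, which are not adjusted for the number of genes, reached 0.138 to 0.193 log2 units to either side. Differences of that size between the condensates with and without nicotine and flavor would not have been resolved. Larger ones can also miss the threshold after adjustment over all genes, as HSPA1B did.

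The difference between EC and control was lower in batch 4 than in batches 2 and 3 for nearly the whole group. EC vs. control had its lowest value in batch 4 for 9 of the 10 genes, against 35.7% of all genes, with HSF1 the exception. The median over the 10 genes was 0.12 in batch 2, 0.088 in batch 3 and −0.13 in batch 4, while the median over all genes stayed at 0.0031, 0.019 and 0.0080. The same comparison for PG/VG gave 0.059, 0.043 and −0.0055, with batch 4 lowest in 4 of the 10 genes, against 36.5% of all genes. Against PG/VG, EC was lowest in batch 4 for 7 of 10 genes, against 32.9%, with medians of 0.093, 0.15 and −0.15. Each condition has a single library in that batch, so neither EC replicate 4 nor control replicate 4 can be told apart from the batch. The difference between batches was not tested. Without batch 4, EC vs. control still gave 2 calls, HSPA1A and HSPA1B, and a median of 0.12.

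**Figure D3:**
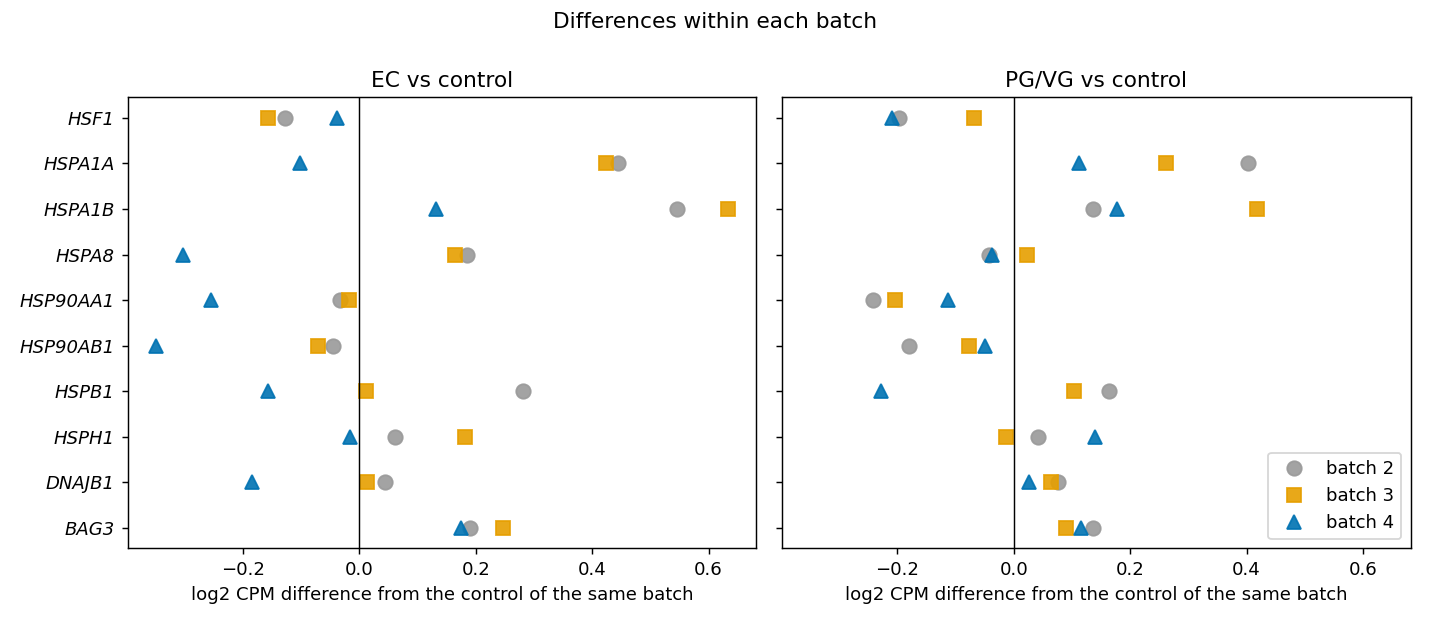
Log2 fold changes within each batch for the 10 genes, for both exposures against control, with 1 marker per batch. In EC vs. control the batch 4 marker lies lowest for 9 of 10 genes, from −0.35 (HSP90AB1) to 0.17 (BAG3), while in PG/VG vs. control it is lowest for 4.

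Several of these genes differed between batches. A joint test of the batch coefficients called 5 of the 10 genes, against 34.3% of all genes. Each adjusted p below is from that test of any difference among the batches. Batch 4 against batch 2 was not tested on its own. HSPB1, the small heat shock protein, averaged 252, 241 and 147 CPM in batches 2, 3 and 4 (log2 difference of batch 4 from batch 2 −0.78, adjusted p = 6.04e-08). HSPH1 averaged 272, 253 and 378 CPM (0.47, adjusted p = 9e-07). These move in opposite directions, so batch 4 was not uniformly higher or lower in chaperone RNA. BAG3 (0.22, adjusted p = 0.00969), HSPA1B (0.31, adjusted p = 0.0304) and HSF1 (0.24, adjusted p = 0.0174) were higher in batch 4 than in batch 2. The largest condensate effect among the 10 genes, 0.44 for HSPA1B in EC, was smaller than the batch differences of HSPB1 and HSPH1.

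The wider chaperone network was read from lists written from general knowledge, beside 8.07% and 5.38% of all genes called higher and lower in EC vs. control and 2.63% and 1.9% in PG/VG vs. control. Among 4 other genes of the heat shock factor system (HSF2, HSF4, HSBP1 and HSBP1L1), none was called in any comparison. HSF2, which forms mixed trimers with HSF1, was at 30.4 ± 5.17 CPM in control and 29.1 ± 1.83 in EC, and HSBP1, which binds HSF1 trimers, at 102.6 ± 15.3 and 99.5 ± 9.82 (SD, n = 3). Among 15 tested genes of other HSP70 and HSP110 chaperones and exchange factors, 2 were higher in EC and 0 lower. HSPA4L, an HSP110 of the same kind as HSPH1, rose from 73.0 ± 21.5 CPM to 95.6 ± 35.8 in EC (log2 fold change 0.37, SE 0.0780, adjusted p = 0.00286) and rose in PG/VG (0.33, adjusted p = 0.0167). Leaving out a library never cost its call in EC and cost that in PG/VG in 4 of 9 fits (adjusted p up to 0.127). HSPA12A, a distant HSP70 relative, rose from 5.75 ± 0.377 CPM to 9.59 ± 3.54 in EC (0.71, adjusted p = 0.0111), a call lost without control replicate 4, EC replicate 3 or EC replicate 4 (adjusted p up to 0.138). HSPA6, a strictly inducible HSP70 singled out after its values were seen, had 6 to 33 counts per library and a log2 fold change of 0.89 with an SE of 0.425 (adjusted p = 0.179).

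Of 16 other J-domain genes, 2 were lower in EC and 0 higher, with a median log2 fold change of −0.070. They were DNAJC6, which uncoats clathrin vesicles with HSP70 (−0.26, adjusted p = 0.0235), and DNAJC8, a splicing-associated member (−0.22, adjusted p = 0.0360), and leaving out a library cost these calls in 4 and 5 of 9 fits (adjusted p up to 0.167 and 0.174). None of the 16 was called in PG/VG. Of 16 HSP90 cochaperones, 2 were lower in EC and 0 higher, with a median of −0.077. STIP1, the adaptor that hands clients from HSP70 to HSP90, fell from 324.2 ± 24.3 CPM to 274.1 ± 8.91 (−0.24, SE 0.0692, adjusted p = 0.0232). CHORDC1, a zinc-binding HSP90 partner, fell from 71.4 ± 1.16 CPM to 58.9 ± 1.53 in EC (−0.27, adjusted p = 0.0211) and to 58.8 ± 6.12 in PG/VG (−0.28, adjusted p = 0.0407). Both EC calls were lost in 3 of the 9 fits without 1 library (adjusted p up to 0.166 for STIP1 and 0.116 for CHORDC1), and the PG/VG call of CHORDC1 in 5 (up to 0.226).

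Of 8 other small heat shock proteins only 2 were expressed enough to test. HSPB8, the partner of BAG3 in chaperone-assisted autophagy, rose from 4.96 ± 2.56 CPM to 8.65 ± 4.18 in EC (0.82, SE 0.160, adjusted p = 0.00142), and its value in PG/VG was 0.47 (adjusted p = 0.101). The SD reflects the batches, and EC was above control in all 3 of them. Leaving out a library never cost the EC call. Of 21 other heat-inducible genes, a list that repeats HSPA4L, HSPB8, STIP1, CHORDC1 and others above, 3 were higher and 3 lower in EC, with a median of 0.010. SQSTM1, the autophagy receptor p62 and also a known NRF2 target, rose from 307.8 ± 131 CPM to 416.0 ± 76.0 (0.50, SE 0.0912, adjusted p = 0.00139), a call kept in all 9 fits without 1 library. ZFAND2A, a zinc-finger gene known for its induction by arsenite and heat, fell from 14.8 ± 3.11 CPM to 11.4 ± 2.25 (−0.37, adjusted p = 0.0493), a call lost in 5 of those fits (adjusted p up to 0.372). In PG/VG, 1 of the 21 was higher (HSPA4L) and 1 lower (CHORDC1).

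Of the paralogues outside the cytosol, the mitochondrial HSP70 and HSP90 were lower after both exposures, and their cytosolic relatives were not called lower by edgeR in the fit of all 9 libraries. HSPA9, the mitochondrial HSP70, fell from 765.3 ± 97.7 CPM in control to 631.5 ± 42.5 in PG/VG (−0.27, adjusted p = 0.0183) and 585.4 ± 38.1 in EC (−0.38, adjusted p = 0.000466). TRAP1, the mitochondrial HSP90, fell from 101.0 ± 9.31 CPM to 83.1 ± 9.23 in PG/VG (−0.28, adjusted p = 0.0194) and 76.2 ± 9.28 in EC (−0.41, adjusted p = 0.000399). Their EC calls held in all 9 fits without 1 library, and their PG/VG calls were lost in 4 (HSPA9, adjusted p up to 0.147) and 5 (TRAP1, up to 0.122) of them. In the endoplasmic reticulum, HSP90B1 (GRP94) rose in EC from 821.2 ± 58.4 CPM to 982.3 ± 101 (0.26, adjusted p = 0.0314), a call lost in 5 of those fits (adjusted p up to 0.185), while HSPA5 (BiP) was at 827.1 ± 26.2 CPM in control and 795.4 ± 69.5 in EC (−0.058, adjusted p = 0.646). Of the 7 genes in this list 1 was higher and 2 lower in EC, and 0 higher and 2 lower in PG/VG. No gene of any of these lists was called in EC vs. PG/VG.

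**Figure D4:**
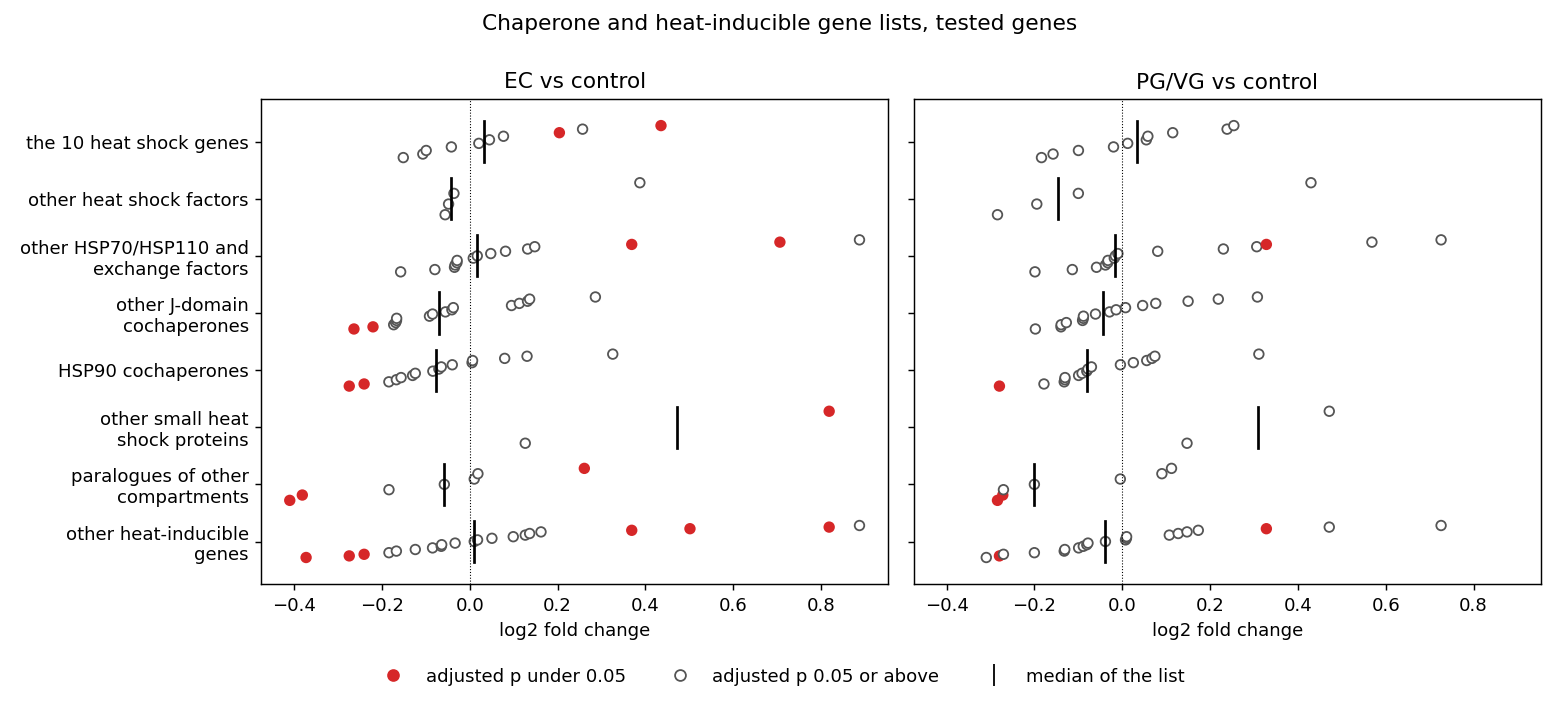
Fitted log2 fold changes of every tested gene in each chaperone list for both exposures against control, with 1 point per gene, filled where the adjusted p was under 0.05, and a bar at the median of the list. The 10 heat shock genes have a median of 0.033 in both panels, and the filled points below 0 in EC are 2 J-domain genes, 2 HSP90 cochaperones, HSPA9, TRAP1 and ZFAND2A, with STIP1 and CHORDC1 drawn again among the heat-inducible genes.

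The mean standardized level of the 10 genes was centred within each batch over 9 libraries. It was highest in EC replicates 2 and 3 (0.69 and 0.55) and lowest in EC replicate 4 (−0.73). Control replicates 2, 3 and 4 stood at −0.41, −0.43 and 0.44, and the PG/VG replicates at −0.28, −0.12 and 0.29. HSPA8 followed that mean most closely (Pearson r = 0.97 over 9 libraries, which share batches and each of which counts HSPA8 in the mean), the other positive values ran from 0.34 (BAG3) to 0.73 (HSPA1A), and HSF1 alone was negative (r = −0.42). Outside the group, the genes most like the mean were RNLS (r = 0.98), TEAD2 (0.98), KDM1A (0.96), PPFIA3 (0.96) and SMIM10 (0.95), picked as the closest of all tested genes, and none of them was called in any of the 3 comparisons.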

How the data were processed

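Messenger RNA of 9 BEAS-2B libraries was sequenced and processed by the authors with fastp, STAR (GRCh38.p12) and featureCounts of Subread 2.0.4 on the exons of an Ensembl annotation, ignoring multi-mapping and multi-overlapping reads. The values deposited are raw counts per gene, as they stood before any batch adjustment, filter or normalization. The strand setting is not given in the sources used here. All 9 columns were used.

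Testing used edgeR 4.0.16 in R 4.3.3 and was limited to the genes that reached 10 counts in 3 or more libraries. One quasi-likelihood fit of all 9 libraries used TMM scaling, robust dispersions and coefficients for condition and batch, with Benjamini-Hochberg adjustment over all 16030 genes at 0.05. SE values are the absolute log2 fold change divided by the square root of F, and intervals are 95%. Batch was used as a replicate block because the labels give the replicate number as the batch. The deviations of libraries from their condition means correlated at 0.401 to 0.765 between libraries of the same number (9 pairs) and −0.618 to 0.512 between different numbers (18 pairs). The ranges overlapped. Because each condition was centred on its own mean, positive values in same-number pairs push those of the other pairs down. CPM values use TMM-scaled library sizes. Averaged over all genes tested, the spread between replicates exceeded counting error, with a chi-square per gene of 3.66 or more. This does not hold for every gene, and the SD of HSPA1B in EC was 0.475 CPM at 839 to 1036 counts.

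The members and the gene lists were chosen with earlier results of these data known. Genes named from the other lists were those with the largest change among the called, up to 4 for EC and 2 for PG/VG against control, the 2 most abundant where none was called, and HSPA5, HSPA9, HSP90B1 and TRAP1. The 5 genes most like the group were taken by Pearson correlation of batch-centred log2(CPM + 0.5). Gene positions and lengths come from GENCODE, in which 62666 of the 63187 genes were matched, and promoter windows from RefSeq. A promoter sequence of HSF1 is not used here. Alternatives were DESeq2 1.42.0 with the batch, ComBat-Seq of sva 3.50.0 followed by DESeq2, RLE and library-size scaling, other filters, other sample sets and an adjusted p under 0.01. The steps were tested on simulated counts.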

Additional observations from a re-analysis of the deposited data

How the results depend on the processing

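The count of heat shock genes called in EC vs. control (2) was 1 at an adjusted p under 0.01, with RLE normalization, with DESeq2 with the batch and with the 2 conditions alone, 0 with no replicate block, 3 with library size only and with ComBat-Seq and DESeq2, and 0 to 2 when 1 library was left out. That in PG/VG vs. control (0) was 1 with the 2 conditions alone (HSP90AA1), 2 with ComBat-Seq and DESeq2, and 0 to 1 when 1 library was left out. That in EC vs. PG/VG stayed at 0 in every alternative run.

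Among all genes, EC vs. control gave 963 calls at an adjusted p under 0.01, 16 with no replicate block, 1216 without batch 4 and 1162 to 2172 when 1 library was left out. PG/VG vs. control (727) gave 226, 1, 324 and 192 to 1084 in the same order, 1179 with the 2 conditions alone and 1735 with ComBat-Seq and DESeq2. EC vs. PG/VG (137) gave 45, 1, 80 and 32 to 208, and 309 with no filter beyond 1 count, 318 with the 2 conditions alone and 658 with ComBat-Seq and DESeq2. In EC vs. control the main fit called 2157 of 16030 genes. RLE normalization gave 2173, DESeq2 with the batch 1726 and the 2 conditions alone 2102 of 15470. Where 3 heat shock genes were called, the calls were 2349 of 16030 (library size only) and 3099 of 16100 (ComBat-Seq and DESeq2). The causes were not tested. The median of the 10 genes ranged over −0.064 to 0.10 in EC vs. control, −0.018 to 0.082 in PG/VG vs. control and −0.011 to 0.089 in EC vs. PG/VG when 1 library was left out.

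Signs turned only in results that were not called. With library size only, EC vs. control turned to 0.019 for DNAJB1, 0.025 for HSBP1, 0.0039 for HSF2 and 0.0024 for HSPA5, and PG/VG vs. control to 0.0068 for HSPA8 and 0.022 for HSPA5. With no filter beyond 1 count, HSPA5 in PG/VG vs. control turned to 0.011 and HSPA1A in EC vs. PG/VG to −0.0031. HSPA1A there was −0.0044 with the 2 conditions alone, and HSPH1 −0.0052 with no replicate block. Without batch 4, a setting added after seeing the data like the summed HSPA1A and HSPA1B counts, EC vs. control turned to 0.014 for DNAJB1 and 0.022 for HSBP1, PG/VG vs. control to −0.0013 for HSPH1, and EC vs. PG/VG to −0.0081 for HSF1 and 0.071 for HSP90AB1. Leaving out 1 library gave ranges through 0 in EC vs. control for DNAJB1 (−0.090 to 0.0062), HSBP1 (−0.13 to 0.039), HSF2 (−0.15 to 0.019), HSPA8 (−0.081 to 0.15) and HSPB1 (−0.058 to 0.16). In PG/VG vs. control these were HSP90B1 (−0.0071 to 0.18), HSPA5 (−0.088 to 0.036), HSPA8 (−0.10 to 0.066), HSPB1 (−0.087 to 0.12) and HSPH1 (−0.020 to 0.12). In EC vs. PG/VG these were HSF1 (−0.0023 to 0.11), HSP90AB1 (−0.12 to 0.051), HSPA1A (−0.079 to 0.13), HSPA8 (−0.047 to 0.18), HSPB1 (−0.049 to 0.087) and HSPH1 (−0.051 to 0.087).

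With 3 libraries per condition, changes of the size of BAG3 lie at the edge of what is called. The counts of HSPA1A and HSPA1B rest on reads that, alone or through their mates, reached differing sequence. The canonical transcripts of the other 8 genes share no 150-base window with another gene.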
